A study of Mus musculus with 12 samples.

Results

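The 10 genes described here encode cytokines that CD4 T cells secrete. They were chosen by symbol, as Ifng, Tnf, Il2, Il17a, Il10, Csf2, Lta, Il4, Il13 and Il3, out of 18193 genes with a probe set of their own on the array. RNA was measured on 12 Affymetrix Mouse430_2 arrays, 3 for each of 4 cell types, all from C57BL/10.RIII mice. In nFoxA1Treg, cells with the surface labels CD4hi and PD-L1hi are called neuron induced in the titles and natural in the cell type field. In iFoxA1Treg, cells with those same surface labels were induced with interferon beta, an antiviral cytokine also used to treat multiple sclerosis. Treg are regulatory T cells labelled CD4+ and TGFbeta+. EncT are encephalitogenic T cells labelled CD4+, the cells that drive autoimmune inflammation of the brain and spinal cord. How the cells were raised and sorted, and whether the 3 replicates came from separate animals, is not given in the sources used here, so each p-value measures only the spread between these arrays, which may be technical.

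Helper T cells act largely through the cytokines they release, and the set that a cell releases defines its type. Type 1 helper cells make interferon gamma with tumour necrosis factor and lymphotoxin, type 2 cells make interleukins 4 and 13, and type 17 cells make interleukin 17A. GM-CSF, the product of Csf2, activates myeloid cells and is needed in mice for experimental autoimmune encephalomyelitis, a model of multiple sclerosis, whereas interleukin 10 restrains inflammation and is a product of many regulatory T cells. Transcription of these genes depends on NFAT, AP-1 and NF-kappaB factors that act after the T cell receptor is engaged, and many of their messenger RNAs are short-lived.

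Several of these genes are neighbours in the genome. Among protein-coding genes of the RefSeq annotation of build GRCm38.p6, Tnf and Lta lay next to each other on chromosome 17, with Ltb on the other side of Tnf. Chromosome 11 held Il4 beside Il13, and Csf2 beside Il3. On chromosome 1, Il17a lay beside Il17f and Il10 beside Il19. Il2 lay beside Il21 on chromosome 3, and Ifng was the member on chromosome 10.

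RefSeq promoter entries were found for 9 of the 10 members. Shown here, 5′ to 3′ on the strand of the gene, are the 250 bases before the transcription start of Tnf and Csf2, whose RNA was called lower in both nFoxA1Treg and Treg than in EncT, of Il13, whose call depended on the fit, and of Ifng, which was not called in either comparison. The intervals on GRCm38.p6 are chr17:35202008-35202257 (minus strand) for Tnf, chr11:54249900-54250149 (minus strand) for Csf2, chr11:53634703-53634952 (minus strand) for Il13 and chr10:118440796-118441045 (plus strand) for Ifng. Capitals mark matches, on either strand, to the motifs named below.
Tnf: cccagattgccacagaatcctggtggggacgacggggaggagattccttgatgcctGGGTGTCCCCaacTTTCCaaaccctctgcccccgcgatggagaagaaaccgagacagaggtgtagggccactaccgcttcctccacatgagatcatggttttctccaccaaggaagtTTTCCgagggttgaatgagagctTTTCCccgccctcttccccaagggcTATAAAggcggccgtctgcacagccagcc
Csf2: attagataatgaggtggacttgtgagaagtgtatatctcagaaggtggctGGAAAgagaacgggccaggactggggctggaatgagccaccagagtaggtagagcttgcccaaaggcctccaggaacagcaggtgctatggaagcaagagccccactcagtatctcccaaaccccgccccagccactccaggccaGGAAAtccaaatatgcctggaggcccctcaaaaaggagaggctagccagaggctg
Il13: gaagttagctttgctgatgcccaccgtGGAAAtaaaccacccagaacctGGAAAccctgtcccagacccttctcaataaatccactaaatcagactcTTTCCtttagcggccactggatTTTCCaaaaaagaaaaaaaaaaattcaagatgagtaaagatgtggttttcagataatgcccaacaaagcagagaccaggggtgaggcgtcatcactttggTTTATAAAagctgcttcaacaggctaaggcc
Ifng: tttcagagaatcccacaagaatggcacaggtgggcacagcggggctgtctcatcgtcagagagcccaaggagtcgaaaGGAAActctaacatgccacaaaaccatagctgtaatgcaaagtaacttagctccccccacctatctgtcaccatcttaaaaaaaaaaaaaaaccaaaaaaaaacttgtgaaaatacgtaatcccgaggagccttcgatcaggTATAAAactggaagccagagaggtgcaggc

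The letters GGAAA, the core that NFAT factors bind, were found in 8 of the 9 members and in 55.6% of all 32851 promoter windows of that length. The 9 members had 10 windows, as Il4 had more than 1, and a member counts when any window matches. By window the count was 8 of 10. The TATA box letters TATAAA were present in 6 of the 9 members and in 12.4% of all windows, and they are absent from the Csf2 window shown. In Lta they began at -167 from the transcription start, and at -31 to -29 in the other members that had them. For the NF-kappaB pattern GGGNNNNNCC the count was 5 of 9 members and 45.8% of windows, among them the Tnf window shown. A full AP-1 site, TGANTCA, was in the Il17a window alone among the members and in 6.75% of all windows. The forkhead letters TGTTTAC were in none of the members' windows and in 3.17% of all windows. Motifs of both strands were counted, 1 match per place, and runs of matches such as TTTATAAA in Il13 are overlapping TATA boxes on opposite strands. A match is only a description of the letters, and its absence from a window says nothing of whether a factor binds.

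Each member had 1 probe set that maps to its symbol alone. An eleventh probe set maps to both Ntan1 and Il2 and gave 8.52 to 9.15 on every array, so it was not attributed to Il2. All levels below are quantile-normalized log2 intensities, on which a difference of 1 is a change of 2 times, and errors of levels are SDs over 3 arrays. Levels are compared between cell types for the same probe set and never between genes, because probe sets differ in their response. Differences were tested with limma across 12609 genes whose mean over the 12 arrays lay at or above 4.05, and were called at a Benjamini-Hochberg adjusted p under 0.05. Of the 10 members, 6 passed this filter (Ifng, Tnf, Il17a, Il10, Csf2 and Lta). Il13 missed it by the smallest margin, with a mean of 4.0503 against the level of 4.0531, while Il2, Il4 and Il3 averaged 1.33 to 2.72.

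**Figure D1:**
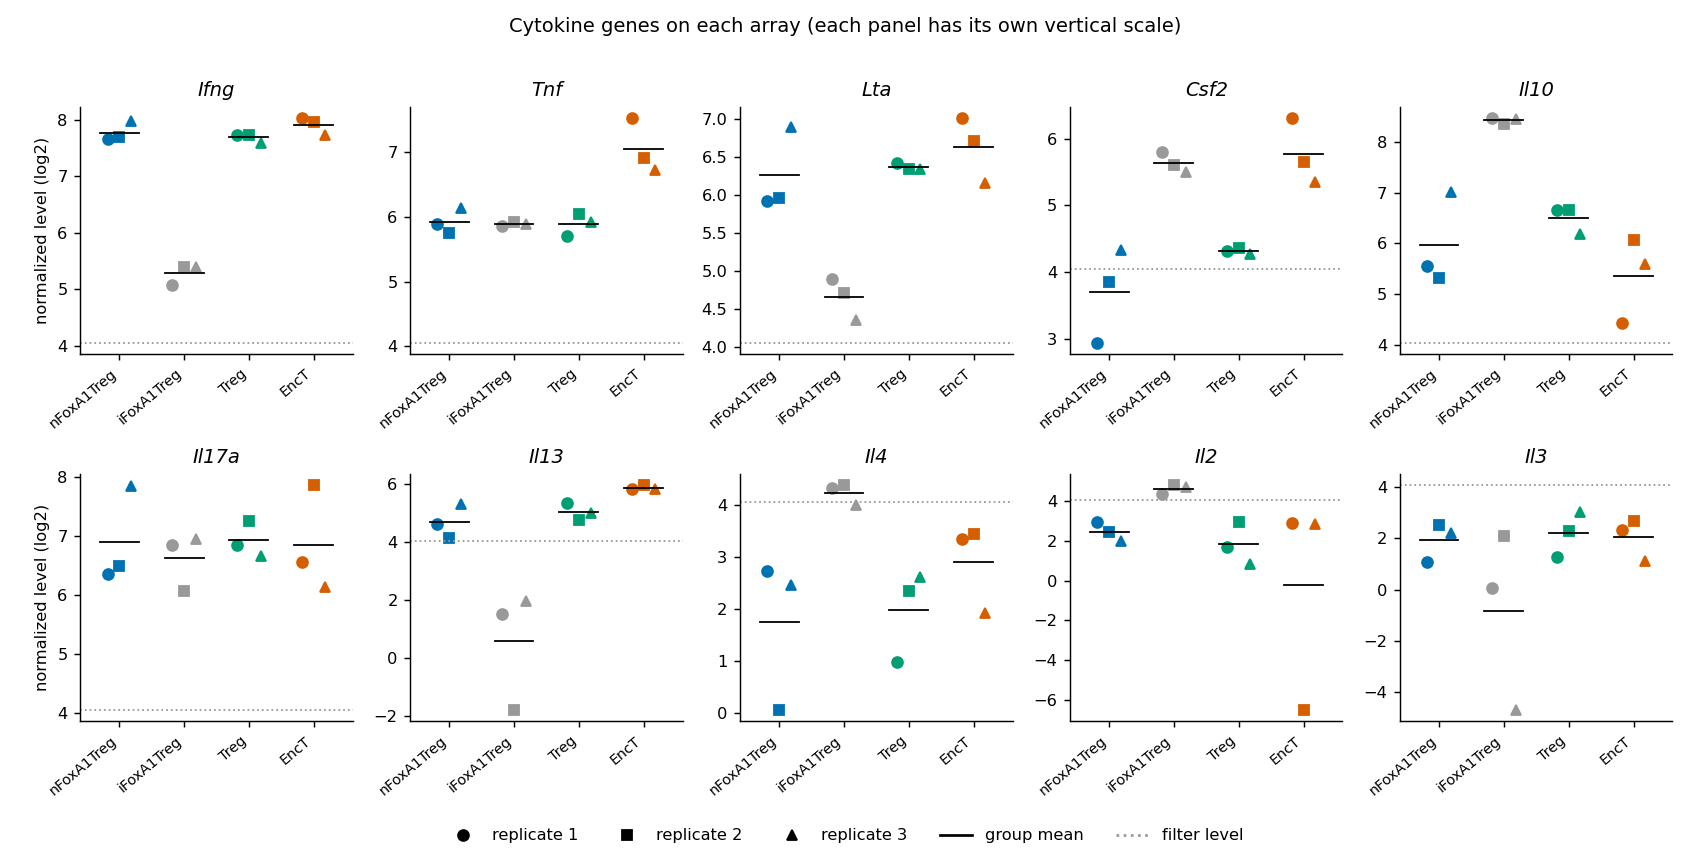
Normalized log2 level of the 10 cytokine genes on each of the 12 arrays, by cell type. Points are arrays, bars are group means, the dotted line is the filter level of 4.05, and vertical scales differ between panels. The EncT arrays stand above all nFoxA1Treg and Treg arrays for Tnf, Csf2 and Il13. The arrays labelled iFoxA1Treg stand apart from all others for Ifng, Lta, Il10, Il13, Il4 and Il2. Arrays did not overlap for 33.7% of all genes tested in nFoxA1Treg against EncT and 33.3% in Treg against EncT. In the comparisons of the arrays labelled iFoxA1Treg the share was 73.4% to 77.7%.

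The arrays labelled iFoxA1Treg went against the CD4hi part of their label. Their Cd4 level was 4.24 ± 0.10, against 10.4 ± 0.07 in nFoxA1Treg, 10.4 ± 0.06 in Treg and 10.6 ± 0.02 in EncT (n = 3 each). Cd274, which encodes PD-L1, went with the PD-L1hi part, at 10.01 ± 0.04, against 7.34 ± 0.13 in nFoxA1Treg, 7.31 ± 0.04 in Treg and 7.63 ± 0.16 in EncT. In nFoxA1Treg, which carry the same surface label, Cd274 RNA went against it. It was -0.29 from EncT (limma adjusted p = 0.0267) and 0.039 from Treg. The macrophage gene Lyz2 reached 12.4 and the B cell gene Cd79b 12.2 in the arrays labelled iFoxA1Treg, with means of at most 5.18 and 3.79 elsewhere. Summed over 11 measured T cell markers their linear level was 4705.5 to 4952.3, against 23280 to 26326 in the other groups. Xist, the RNA of the inactive X chromosome in females, averaged 2.11, against 11.1 to 11.5 elsewhere, and the Y-linked Eif2s3y averaged 9.66, against at most 2.30. Their correlation with other arrays over all probe sets was 0.683 to 0.739, against 0.815 to 0.847 between arrays of the other 3 cell types. Comparisons among nFoxA1Treg, Treg and EncT are therefore given first.

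The summed level of 12 macrophage and monocyte markers was 164 to 218 in nFoxA1Treg and 219 to 243 in Treg, against 379 to 480 in EncT. The 9 measured dendritic cell markers summed to 242 to 373 and 363 to 412 in the regulatory groups, and to 481 to 555 in EncT. They did not move together. Of the 5 past the filter, 2 (Cd74 and H2-Aa) were called lower and 1 (Ccr7) higher in each comparison with EncT. Ccr7 was 0.38 higher in nFoxA1Treg and 0.53 higher in Treg on the log2 scale. EncT replicate 1 stood apart for mast cell and basophil markers, at 5193.6 against 161 and 283 in the other EncT arrays, 156 to 181 in nFoxA1Treg and 137 to 209 in Treg. It was also low for the sum of CD8 T and NK cell markers, at 3254.1 against 6588.3 and 7592.1. That sum weighs bright genes most. In EncT, Gzma averaged 11.4 ± 1.21 and Nkg7 10.9 ± 0.38, against 4.81 ± 0.32 for Cd8a. Foxp3, the defining factor of most regulatory T cells, and Foxa1, after which the FoxA1 cells are named, lay below the filter level on all 9 arrays of these 3 groups, with Foxp3 at most 3.61 and Foxa1 at most 2.85. In RNA of whole populations, fewer cells that express a gene and less RNA per cell cannot be told apart.

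**Figure D2:**
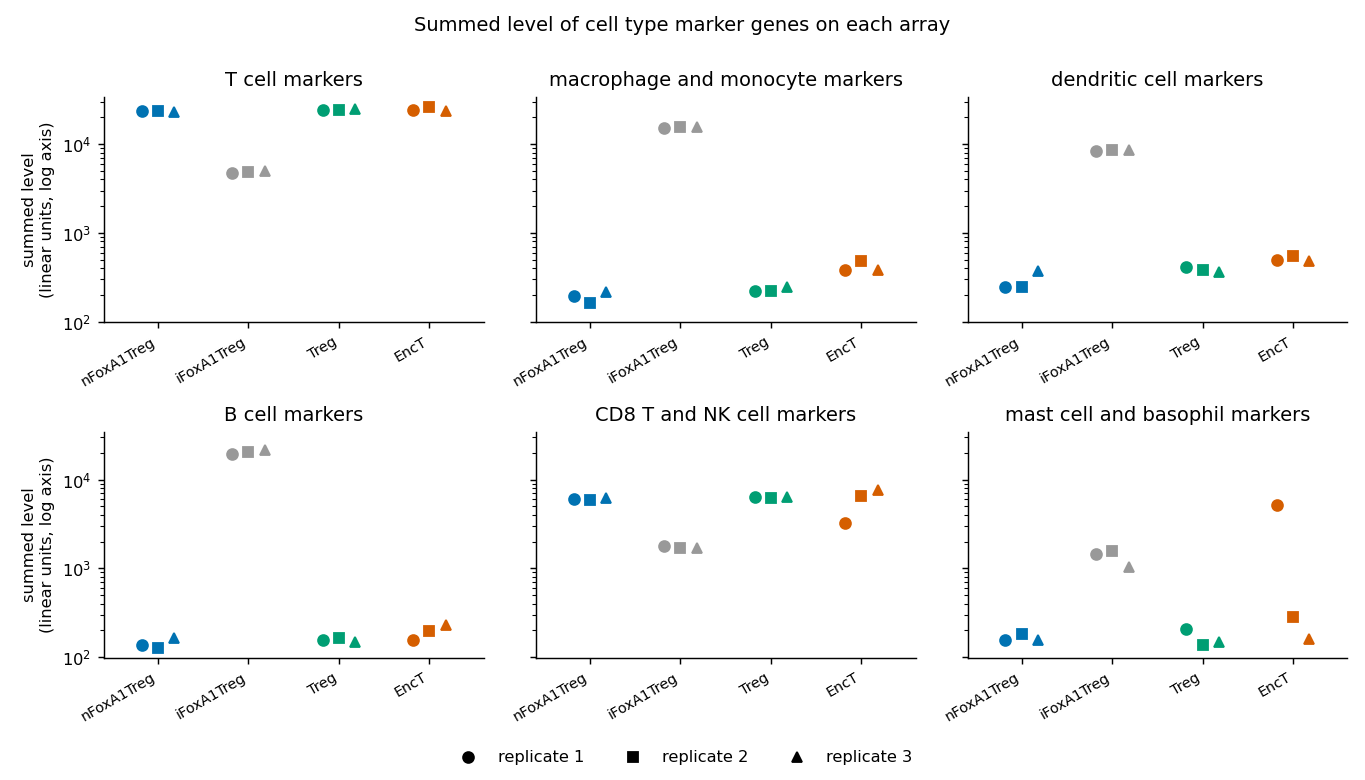
Summed linear level of the measured marker genes of 6 cell types on each array, on a logarithmic axis, by labelled cell type. The arrays labelled iFoxA1Treg are low for T cell markers and high for the sums of macrophage, dendritic and B cell markers. Of 5 dendritic cell markers past the filter, 4 were higher there than in EncT. Itgax, another of that list but below the filter, averaged 3.20 there and 4.18 in EncT. EncT replicate 1 is highest for mast cell and basophil markers, followed by the arrays labelled iFoxA1Treg at 1034 to 1551.7.

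Tnf, which encodes the inflammatory cytokine tumour necrosis factor, was lower in both regulatory cell types than in EncT. Its level was 5.90, 5.75 and 6.13 in nFoxA1Treg and 5.71, 6.04 and 5.92 in Treg, against 7.53, 6.91 and 6.72 in EncT. All 3 EncT arrays were above all 6 arrays of the regulatory groups, and EncT replicate 1 was the highest. In nFoxA1Treg, Tnf fell by 1.13 on the log2 scale relative to EncT (SE 0.18, 2.19-fold, limma adjusted p = 0.00120). In Treg it fell by 1.17 (SE 0.18, 2.25-fold, limma adjusted p = 0.00130). Without EncT replicate 1, the array with high mast cell and basophil markers, the differences were -0.89 (limma adjusted p = 0.00156) and -0.93 (limma adjusted p = 0.00157). Macrophages and mast cells also make tumour necrosis factor, and the part of the marker differences given above in this result was not tested.

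Lta, the neighbour of Tnf, encodes lymphotoxin alpha, which signals through the same receptors and helps to organise lymphoid tissue. Its level was 5.92, 5.96 and 6.90 in nFoxA1Treg and 6.42, 6.34 and 6.34 in Treg, against 7.02, 6.72 and 6.15 in EncT. The 3 groups overlapped, with nFoxA1Treg replicate 3 above the other nFoxA1Treg arrays. The difference from EncT was -0.37 in nFoxA1Treg (95% interval -0.93 to 0.19, limma adjusted p = 0.366) and -0.26 in Treg (interval -0.82 to 0.29, limma adjusted p = 0.549). Without nFoxA1Treg replicate 3, Lta passed the threshold in nFoxA1Treg, at -0.69 (adjusted p = 0.0498).

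Csf2, which encodes GM-CSF, had the widest gap of the members past the filter in both comparisons with EncT. It stood at 2.95, 3.85 and 4.33 in nFoxA1Treg and at 4.32, 4.37 and 4.27 in Treg, against 6.31, 5.64 and 5.34 in EncT. Every EncT array was higher than every array of the regulatory groups, and the Treg arrays lay close together while the nFoxA1Treg arrays spread over more than 1 log2 unit. Relative to EncT, Csf2 fell by 2.06 in nFoxA1Treg (SE 0.30, 4.16-fold, limma adjusted p = 0.000828) and by 1.45 in Treg (SE 0.30, 2.72-fold, limma adjusted p = 0.00747). The nFoxA1Treg mean of 3.71 lay below the filter level, where log2 differences widen with noise. On a scale with 16 added to each linear value before the logarithm, the differences were -1.26 (adjusted p = 0.000388) and -0.98 (adjusted p = 0.00251). Without EncT replicate 1 they were -1.78 (adjusted p = 0.00294) and -1.17 (adjusted p = 0.0289) on the normalized scale. Csf2 also averaged 5.63 in the arrays labelled iFoxA1Treg, which were low for T cell markers, against 5.76 in EncT. The part of the marker differences given above in the Csf2 result was not tested.

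Il3, the neighbour of Csf2, encodes a growth factor for mast cells, basophils and early blood cells. Its level was 1.09, 2.51 and 2.20 in nFoxA1Treg and 1.28, 2.29 and 3.04 in Treg, against 2.34, 2.66 and 1.12 in EncT. All 9 values lay below the filter level and the groups overlapped, so the 2 neighbours Csf2 and Il3 cannot be set side by side in these data.

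Ifng, which encodes interferon gamma, differed little between the T cell groups. The arrays read 7.66, 7.70 and 7.97 in nFoxA1Treg and 7.74, 7.74 and 7.60 in Treg, against 8.04, 7.97 and 7.74 in EncT. The ranges of the 3 groups overlapped. The difference was -0.14 for nFoxA1Treg (95% interval -0.38 to 0.11, limma adjusted p = 0.466) and -0.22 for Treg (interval -0.47 to 0.027, limma adjusted p = 0.221). Both intervals leave out a drop of the size of Tnf.

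Il17a, which encodes the type 17 cytokine that recruits neutrophils, varied more between replicates than between cell types. It read 6.37, 6.49 and 7.85 in nFoxA1Treg and 6.86, 7.26 and 6.67 in Treg, against 6.56, 7.86 and 6.14 in EncT. A single array was high in nFoxA1Treg (replicate 3) and in EncT (replicate 2). The group means lay within 0.073 of each other on the log2 scale (6.90 in nFoxA1Treg, 6.93 in Treg and 6.86 in EncT), and the limma adjusted p was 0.963 for nFoxA1Treg and 0.941 for Treg against EncT. The 95% intervals, -0.90 to 0.99 and -0.87 to 1.02, allow a change of about 1 log2 unit in either direction.

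Il10, which encodes the anti-inflammatory cytokine interleukin 10, had higher group means in both regulatory cell types than in EncT, without passing the threshold. Its level was 5.56, 5.33 and 7.01 in nFoxA1Treg and 6.66, 6.65 and 6.18 in Treg, against 4.44, 6.06 and 5.60 in EncT. The Treg arrays were all above the EncT arrays, whereas nFoxA1Treg overlapped with EncT because replicate 3 alone was above it. In Treg the difference was 1.13 (95% interval 0.24 to 2.03, unadjusted p = 0.0173 and adjusted p = 0.0810 by limma). It was called without EncT replicate 2, at 1.48 (adjusted p = 0.0249), and the difference was 0.67 (adjusted p = 0.286) without EncT replicate 1. For nFoxA1Treg it was 0.60 (interval -0.30 to 1.496, limma adjusted p = 0.363).

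Il13, which encodes a type 2 cytokine that acts on epithelium and macrophages, missed the filter because of its low level in the arrays labelled iFoxA1Treg, and its call against EncT depended on the arrays and genes in the fit. Among the other groups its level was 4.64, 4.14 and 5.33 in nFoxA1Treg and 5.35, 4.78 and 5.003 in Treg, against 5.82, 5.96 and 5.84 in EncT. The 3 EncT arrays were the highest of the 9 and lay close together. In a fit on these 9 arrays with the filter recomputed on them, chosen after the filter result was seen, Il13 fell by 1.17 in nFoxA1Treg (SE 0.25, 2.24-fold, limma adjusted p = 0.0105) and by 0.83 in Treg (SE 0.25, 1.78-fold, limma adjusted p = 0.0489). In that fit 10.1% of 12497 genes were called lower in nFoxA1Treg and 8.87% in Treg. With those 9 arrays and no filter, the limma adjusted p was 0.0210 in nFoxA1Treg and 0.0837 in Treg, so the Treg difference was not called. With only the arrays of the groups compared and no filter it was 0.0525 and 0.0325, and with all 12 arrays and no filter 0.398 and 0.588 (SE 0.74). Mast cells also make interleukin 13. The array with the highest mast cell and basophil markers, EncT replicate 1, read 5.82 for Il13, beside 5.96 and 5.84 in the other EncT arrays. The arrays labelled iFoxA1Treg, where Il13 averaged 0.58, came next for those markers, at 1034 to 1551.7. The part of mast cells in the Il13 differences was not tested.

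Il4, the neighbour of Il13, encodes the cytokine that directs type 2 helper cells and antibody class switching. Its level was 2.72, 0.066 and 2.45 in nFoxA1Treg and 0.99, 2.35 and 2.62 in Treg, against 3.35, 3.43 and 1.92 in EncT. Il2, the T cell growth factor gene, read 2.97, 2.46 and 1.98 in nFoxA1Treg and 1.68, 2.97 and 0.81 in Treg, against 2.92, -6.51 and 2.87 in EncT. All 18 values lay below the filter level and the groups overlapped, so no fold change is given for these genes.

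Counted over the 6 members past the filter, 2 (Tnf and Csf2) were lower and 0 higher in nFoxA1Treg than in EncT, where 19.6% of the 12609 genes were called and 11.2% were called lower. The same 2 members, out of 6, were lower in Treg than in EncT and 0 higher, against 16.5% of all genes called and 10.3% called lower. Arrays of nFoxA1Treg and EncT did not overlap for 2 of the 6 members and for 33.7% of all genes. For Treg and EncT it was 3 of the 6 and 33.3%. The medians over all genes tested were -0.0045 and -0.0038. With other scalings the split of called genes in Treg, 785 higher and 1299 lower, became 535 and 1417 on the deposited values and 429 and 1293 with arrays centred on their medians. Tnf and Csf2 were called lower under each of these scalings. Because both comparisons use the EncT arrays, the fall of the same genes in both is not independent evidence.

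**Figure D3:**
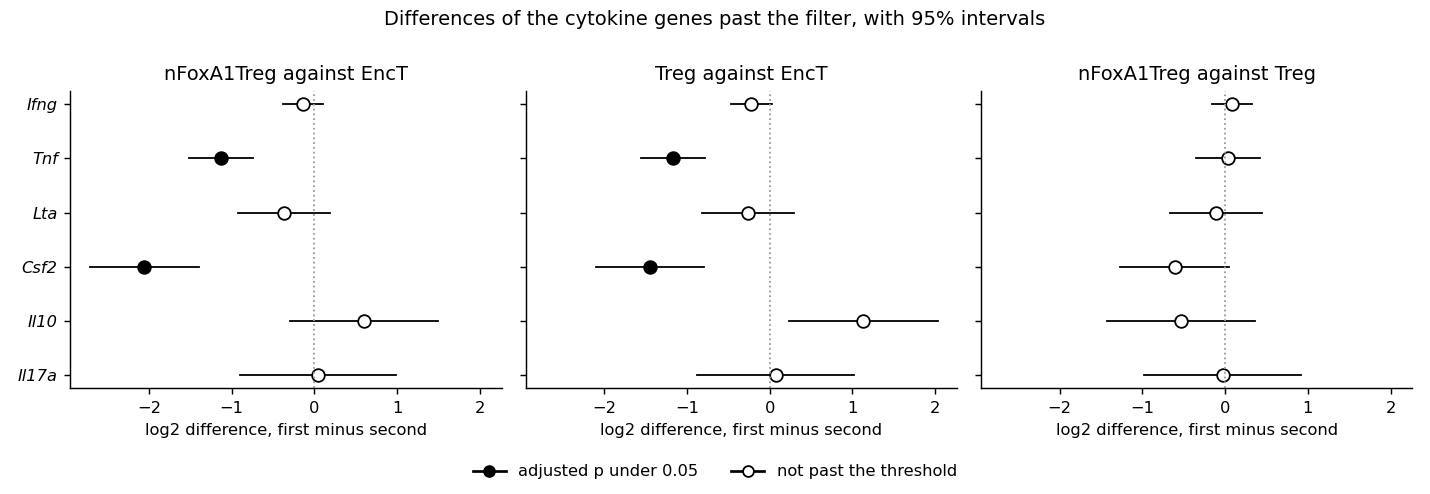
Log2 differences of the 6 cytokine genes past the filter, first-named group minus second, with 95% intervals from limma, in the 3 comparisons among T cell groups. Filled points passed an adjusted p under 0.05. Tnf and Csf2 are filled and left of 0 in both comparisons with EncT, and no point is filled for nFoxA1Treg against Treg.

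The direct comparison of the regulatory cell types called none of the 6 members, and 1 of the 12609 genes in all (0.00793%), Ttr, which was named after its value was seen. At an unadjusted p under 0.05 no member passed either. The widest member difference was in Csf2, at -0.61 in nFoxA1Treg relative to Treg (95% interval -1.27 to 0.047, unadjusted p = 0.0660 and adjusted p = 0.9997 by limma). For Il10 it was -0.53 (interval -1.43 to 0.36). The difference of Tnf was 0.039 (interval -0.34 to 0.42) and that of Ifng 0.084 (interval -0.16 to 0.33), intervals that leave out a change of 1 log2 unit. Those of Lta (-0.66 to 0.45) and Il17a (-0.97 to 0.92) were wider.

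The highest array of a group was often the same for several members. In nFoxA1Treg, replicate 3 was the highest array for 6 of the 6 members past the filter, and it was the highest for 44.9% of all genes tested. In EncT, replicate 1 was the highest for Ifng, Tnf, Csf2 and Lta (27.7% of all genes) and replicate 2 for Il17a and Il10 (46.0%). In Treg, replicate 2 was the highest for 4 of the 6 (37.1% of all genes) and replicate 3 for none (34.3%).

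The arrays labelled iFoxA1Treg differed from the others for most genes and for 4 of the 6 members in each comparison. Ifng read 5.08, 5.39 and 5.40 there, below every other array, and was 2.63 lower than in EncT (SE 0.11, 6.18-fold, limma adjusted p = 1.90e-10). Lta read 4.90, 4.70 and 4.36, also below every other array, and was 1.98 lower than in EncT (SE 0.26, 3.94-fold, limma adjusted p = 1.18e-05). These drops of 2 T cell cytokine genes stood beside a drop in all 11 T cell markers tested, whose median difference from EncT was -2.85. Il10 went the other way, at 8.46, 8.35 and 8.44, above every other array, and was 3.05 higher than in EncT (SE 0.41, 8.29-fold, limma adjusted p = 1.78e-05). Macrophages and B cells can make interleukin 10 as well, and the macrophage and B cell markers summed to 15191 to 15721 and 19555 to 21358 in these arrays, against at most 480 and 232 in the others. The part of these markers in the cytokine differences was not tested.

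Tnf read 5.86, 5.92 and 5.89 in the arrays labelled iFoxA1Treg, within the range of nFoxA1Treg and Treg, and was 1.17 below EncT (limma adjusted p = 5.10e-05). Its difference was -0.037 from nFoxA1Treg (95% interval -0.42 to 0.35) and 0.0016 from Treg (interval -0.38 to 0.39). Csf2 read 5.79, 5.60 and 5.51, within the EncT range, with a difference from EncT of -0.13 (interval -0.79 to 0.53). It was 1.92 higher than in nFoxA1Treg (limma adjusted p = 6.57e-05) and 1.32 higher than in Treg (limma adjusted p = 0.00152). Il17a, at 6.85, 6.08 and 6.96, overlapped with every group. Il13 read 1.54, -1.79 and 1.99, below every other array, Il4 read 4.32, 4.37 and 3.99, above every other array, and Il2 read 4.36, 4.79 and 4.73, likewise above. Il3 read 0.069, 2.09 and -4.68. In these comparisons 72.2% of all genes were called against EncT, 73.6% against Treg and 74.4% against nFoxA1Treg, so 4 of 6 members called is close to the background. Arrays did not overlap for 4 of the 6 members in each comparison, and for 73.4%, 77.7% and 77.7% of all genes. Against EncT, 4280 genes were higher and 4823 lower, and the deposited values gave 3265 and 5768, with a median shift over all genes of -0.18. The 4 members called there kept their direction on the deposited values.

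Ordered by group mean from low to high, Tnf averaged 5.89 ± 0.17 in Treg, 5.89 ± 0.03 in the arrays labelled iFoxA1Treg, 5.93 ± 0.19 in nFoxA1Treg and 7.05 ± 0.42 in EncT, of which the lower 3 did not differ beyond their spread. The order of Csf2 was nFoxA1Treg (3.71 ± 0.70) and Treg (4.32 ± 0.05), which overlapped, then iFoxA1Treg (5.63 ± 0.15) and EncT (5.76 ± 0.49), which overlapped too. From high to low, Il10 averaged highest in iFoxA1Treg (8.42 ± 0.06), followed by Treg (6.50 ± 0.27), nFoxA1Treg (5.97 ± 0.91) and EncT (5.37 ± 0.84), with overlap between Treg and nFoxA1Treg and between nFoxA1Treg and EncT. For Ifng and Lta the 3 T cell groups formed 1 overlapping set above the arrays labelled iFoxA1Treg (5.29 ± 0.18 and 4.65 ± 0.27), and for Il17a all 4 groups overlapped.

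The genes whose pattern over the 9 T cell arrays lay nearest to a member were found by the root mean square difference of centred log2 values, among 12266 genes, as a description over arrays that share their groups. Nearest to Tnf were Ddit4, which encodes an inhibitor of the growth kinase mTORC1, at 0.17, and Ern1, which encodes a sensor of unfolded protein, also at 0.17, where Tnf itself varied by 0.59. Next came 5830408C22Rik. The nearest to Csf2 were Ighm at 0.29, 9330175E14Rik and Mir142, and those to Ifng were Bcl10 at 0.055, Sec14l1 and Cryz. For Il13, which varied by 0.58, the third nearest was Il5, another type 2 cytokine gene of the list below, at 0.22, after Tlr1 at 0.19 and Pygl. Lta lay nearest to Plscr1, Kcnmb4 and Oas1a, Il17a to Csgalnact1, Pdlim5 and Litaf, and Il10 to Klra5, Rgs1 and Ifitm6, the last at 0.34 to 0.38 and thus less close.

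Other cytokine genes of T cells were lower in the regulatory cells as well where they were called. Of 14 tested, 7 were lower and 0 higher in nFoxA1Treg than in EncT (median -0.46), and 5 were lower and 0 higher in Treg (median -0.31). These make 50.0% and 35.7% of the list. Over all genes tested, 19.6% were called in nFoxA1Treg (11.2% lower) and 16.5% in Treg (10.3% lower). Osm, which encodes the cytokine oncostatin M, averaged 6.05 ± 0.14 in nFoxA1Treg and 6.36 ± 0.23 in Treg, against 7.17 ± 0.11 in EncT (2.17-fold and 1.74-fold lower, limma adjusted p = 8.75e-05 and 0.000979). Ebi3, which encodes a subunit shared by several cytokines of the interleukin 12 family, was 1.51-fold and 1.49-fold lower, and Il16, a chemoattractant gene, 1.35-fold and 1.21-fold lower. Il5, a type 2 cytokine gene near Il13, was not called, at -1.02 in nFoxA1Treg (limma adjusted p = 0.0686) and -0.67 in Treg (limma adjusted p = 0.247).

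Receptor genes of the members were called in 1 direction. In nFoxA1Treg 6 of 14 were lower and 0 higher (median -0.16), and in Treg 4 of 14 were lower and 0 higher (median -0.097). The shares called, 42.9% and 28.6%, stand beside 19.6% and 16.5% of all genes. Csf2rb, which encodes the signalling chain of the GM-CSF and interleukin 3 receptors, averaged 1.72 ± 0.96 in nFoxA1Treg and 4.12 in Treg, against 5.58 ± 1.01 in EncT. It was 3.86 lower in nFoxA1Treg (SE 0.47, limma adjusted p = 0.000259), down to the floor. In Treg it was 1.45 lower and was not called (limma adjusted p = 0.0509). Csf2rb passed the filter because of the arrays labelled iFoxA1Treg, where it averaged 9.93. Ifngr2, called lower in nFoxA1Treg, averaged 3.24 there, 3.42 in Treg and 3.83 in EncT, each below the filter level. It too passed only through the arrays labelled iFoxA1Treg, at 6.73. Myeloid cells also express Csf2rb, which moved with the macrophage marker sums given above, and the part of those cells was not tested. Tnfrsf1a, the main receptor gene for tumour necrosis factor, was 1.24-fold lower in nFoxA1Treg and 1.20-fold lower in Treg. Il10rb, Ifngr1 and Il10ra were called lower in both. On the log2 scale Il10rb was -0.33 from EncT in nFoxA1Treg and -0.22 in Treg (limma adjusted p = 0.00395 and 0.0333). Ifngr1 was -0.27 and -0.38 from EncT (limma adjusted p = 0.00780 and 0.00149), and Il10ra -0.65 and -0.78 (limma adjusted p = 0.0105 and 0.00521).

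The transcription factors that act on cytokine genes moved both ways. Of 33 tested, 3 were higher and 11 lower in nFoxA1Treg (median -0.099), and 3 were higher and 11 lower in Treg (median -0.14). In each comparison 42.4% of the list was called, against 19.6% and 16.5% of all genes. Fos, a subunit of AP-1, averaged 6.94 ± 0.31 in nFoxA1Treg and 6.86 ± 0.18 in Treg, against 3.31 ± 0.85 in EncT, where it lay below the filter level (limma adjusted p = 1.55e-05 and 2.96e-05). Irf1, an interferon-induced factor, was 1.505-fold and 1.53-fold lower, and Prdm1, which encodes the repressor Blimp-1 that restrains Il2, was 1.49-fold and 1.55-fold lower. Tbx21, which encodes T-bet, the factor of type 1 cells that activates Ifng, was 0.40 lower in nFoxA1Treg (limma adjusted p = 0.00418) and 0.36 lower in Treg (limma adjusted p = 0.00879), while the Ifng difference did not pass. Maf, an activator of Il10 and Il4, was 0.63 and 0.45 lower (limma adjusted p = 0.00140 and 0.0114). Gata3, the factor of type 2 cells, was -0.033 and 0.063 from EncT and was not called. Tbx21, Maf, Gata3 and Il5 were picked from their lists after the values were seen.

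Targets of the cytokine signals were called in both directions. For interferon gamma, 1 of 16 target genes was higher and 7 lower in nFoxA1Treg (median -0.32), and 1 was higher and 6 lower in Treg (median -0.27). Called in either direction were 50.0% and 43.8% of this list, against 19.6% and 16.5% of all genes. Irgm2, an interferon-induced GTPase gene, was 2.41-fold lower in nFoxA1Treg and 2.17-fold lower in Treg (limma adjusted p = 0.000241 and 0.000706). Cxcl10, a chemokine gene, was higher in both. It averaged 4.56 ± 0.87 in nFoxA1Treg and 6.17 ± 0.07 in Treg, against 3.53 ± 0.33 in EncT (limma adjusted p = 0.0342 and 0.000346). Among 15 targets of tumour necrosis factor and NF-kappaB, 2 were higher and 9 lower in nFoxA1Treg (median -0.30), and 1 was higher and 7 lower in Treg (median -0.26). That list had 73.3% and 53.3% called. Ier3, an early response gene, was 3.89-fold and 3.44-fold lower (limma adjusted p = 1.61e-05 and 5.90e-05). Tnfaip3, which encodes A20, an inhibitor of NF-kappaB signalling, was 2.34-fold and 1.89-fold higher (limma adjusted p = 6.26e-05 and 0.000661), and Cflar, an inhibitor of death receptor signalling, 1.49-fold and 1.39-fold lower.

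Among 15 genes downstream of interleukin 2 and STAT5, a list that holds Il10, 1 was higher and 5 lower in nFoxA1Treg (median -0.21). In Treg 1 was higher and 3 lower (median -0.26). The other 9 in nFoxA1Treg and 11 in Treg were not called. The shares called over all genes tested were 19.6% in nFoxA1Treg and 16.5% in Treg. Pim2, a survival kinase gene, was 1.95-fold and 1.91-fold lower (limma adjusted p = 0.000100 and 0.000215). Ccnd2, a cyclin gene, was 1.23-fold lower in both. Myc, a growth regulator, was -0.39 from EncT on the log2 scale in nFoxA1Treg and -0.30 in Treg (limma adjusted p = 0.00542 and 0.0241). Cd69, an early activation marker, was 0.89 higher on the log2 scale in nFoxA1Treg and 0.94 higher in Treg (limma adjusted p = 0.00564 and 0.00519). Of 19 regulators of messenger RNA decay and cytokine feedback, 3 were higher and 7 lower in nFoxA1Treg (median -0.16), and 3 were higher and 6 lower in Treg (median -0.13). That list had 52.6% and 47.4% called. Dusp1, a phosphatase gene that limits MAP kinase signalling, averaged 8.75 ± 0.01 in nFoxA1Treg and 8.58 ± 0.10 in Treg, against 7.59 ± 0.03 in EncT (limma adjusted p = 2.21e-07 and 8.10e-07). Dgka, which encodes a kinase that limits diacylglycerol signalling, was -0.44 from EncT on the log2 scale in nFoxA1Treg and -0.23 in Treg (limma adjusted p = 0.000275 and 0.0134). Zfp36l2, which encodes a protein that destabilises AU-rich messenger RNAs, was 1.56-fold higher in Treg, and Socs1, an inhibitor of cytokine signalling, was 2.22-fold lower in nFoxA1Treg and 1.97-fold lower in Treg. No gene of these 7 lists was called between nFoxA1Treg and Treg.

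**Figure D4:**
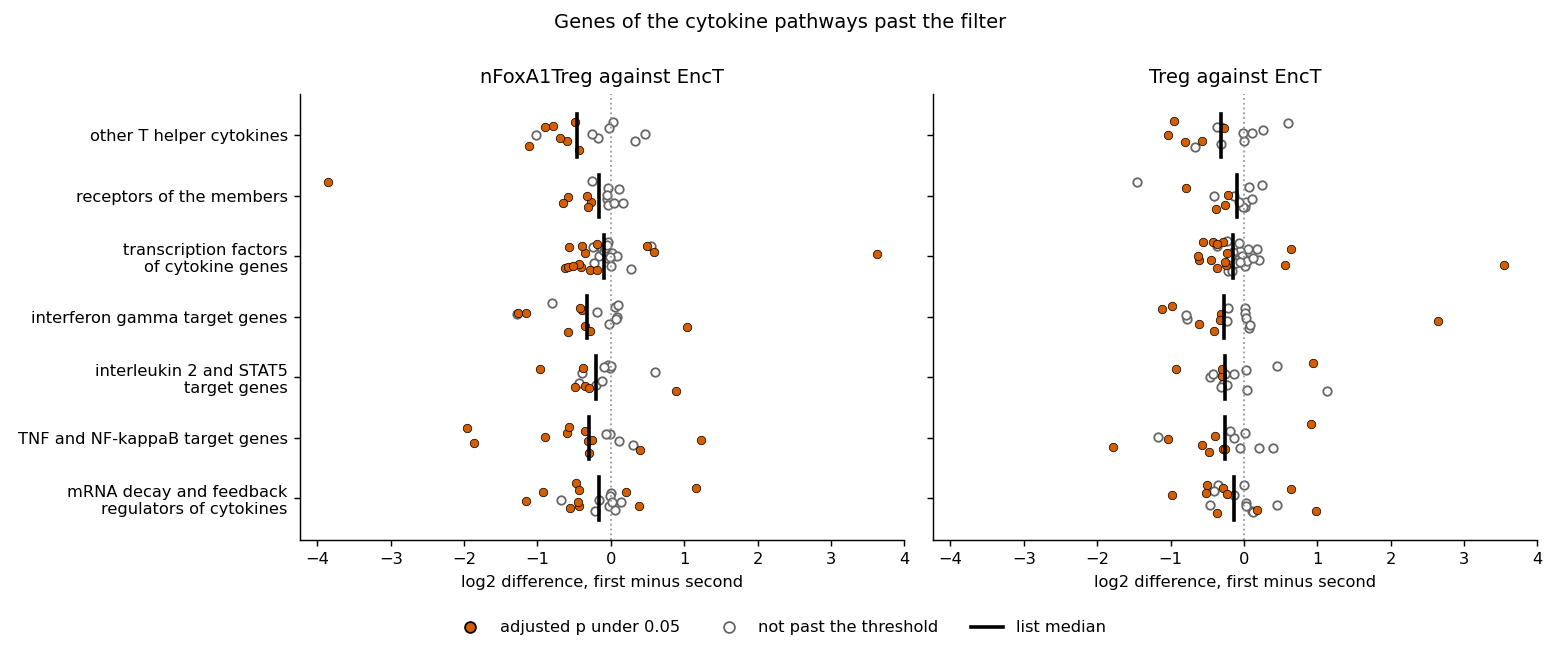
Log2 differences of the genes past the filter in 7 lists of cytokine pathway genes, nFoxA1Treg minus EncT (left) and Treg minus EncT (right). Filled points passed an adjusted p under 0.05 and black bars are list medians, which lie below 0 for all 7 lists in both comparisons. Fos is the point at the far right in both panels and Csf2rb the point at the far left for nFoxA1Treg.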

How the data were processed

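Per the submitters' processing notes, PLIER, which summarises the probes of a probe set, was used. Neither its version nor any scaling across arrays is stated there. The deposited values are log2 intensities of 45037 probe sets on 12 arrays. Their base was read from the values, dim probe sets run below 0 (lowest -14.8), and array medians ran from 4.64 to 4.84. Per the labels' protocols, RNA was extracted with Trizol, treated with DNase and amplified from the 3' end.

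Because array medians differed by 0.202 log2, more than the tolerance of 0.2, quantile normalization was applied. The filter kept the upper 60% of probe sets by mean over the 12 arrays, and the brightest probe set with 1 symbol in the array annotation stood for a gene (34945 probe sets had 1 gene, 932 several and 9160 none). Differences were fitted with limma 3.58.1 in R 4.3.3, with 1 mean per group (8 residual degrees of freedom) and eBayes with an intensity trend, with two-sided p-values and Benjamini-Hochberg adjustment per comparison. The procedure was also run on simulated data with independent noise for each gene and changes planted in nFoxA1Treg alone. That run leaves out shifts shared by many genes of an array, so it cannot show how such shifts affect the calls. Having 3 arrays in a group limits how precisely a difference is known.

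The members and the gene lists were chosen with earlier results of these data known. Named were all members, the 3 called genes of smallest adjusted p in each list and T cell comparison, and the 3 genes nearest in pattern to each member. Alternatives were the deposited values, median centring, log2(value + 16), other filters and samples, single replicates left out and a replicate block. Scanner files were not used here.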

Additional observations from a re-analysis of the deposited data

How the results depend on the processing

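Tnf and Csf2 stayed called lower in nFoxA1Treg and in Treg than in EncT under all 15 alternatives run for each. The adjusted p reached at most 0.0152 for Tnf and 0.0147 for Csf2 in nFoxA1Treg, and 0.0117 and 0.0313 in Treg, and the log2 differences ran from -1.29 to -0.89 and from -2.36 to -1.26 in nFoxA1Treg, and from -1.33 to -0.93 and from -1.66 to -0.98 in Treg. For members past the filter, 502 of the recomputed differences kept their side of the threshold and 2 passed it newly (Lta without nFoxA1Treg replicate 3 and Il10 in Treg without EncT replicate 2). For members below the filter 290 kept it, 15 passed newly and 7 no longer passed. Il13 in nFoxA1Treg against EncT ranged over adjusted p from 0.00346 to 0.660, and passed in both fits on the 9 other arrays and with 16 added before the logarithm, but not with only the arrays of both groups (0.0525). In Treg it ranged from 0.0199 to 0.788, and passed with 16 added, with only the arrays of both groups (0.0325) and on 9 arrays with the filter recomputed, but not on 9 arrays without a filter (0.0837).

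The count of genes called in nFoxA1Treg against EncT was 2474, and 1229 when the fit held 6 arrays, those of the 2 groups. Leaving out single replicates gave 1513 (without nFoxA1Treg replicate 1) to 3011 (without EncT replicate 2). In Treg against EncT it was 2084, 1140 with those 2 groups alone, and 1016 (without Treg replicate 2) to 2713 with single replicates left out. In nFoxA1Treg against Treg it was 1, 3 with 16 added, 4 with no filter and 1 to 11 with single replicates left out (11 without nFoxA1Treg replicate 3). The cause of these differences was not tested.

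Same-numbered arrays deviated from their group means with correlations of -0.16 to 0.17, over 0.1 in 2 of 18 pairs, so the numbers are not shown to pair the samples. With the replicate number as a block, 2343, 1880 and 2 genes were called in those 3 comparisons, 9032, 9214 and 9300 in the arrays labelled iFoxA1Treg against EncT, Treg and nFoxA1Treg, and the count of members called stayed at 2, 2 and 0, and at 4 in each comparison of the arrays labelled iFoxA1Treg. A second probe set in place of the brightest could not be tried, because each member has 1 probe set of its own. Signal near the floor limits what can be said of Il2, Il3 and Il4.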
